A study of Mus musculus with 7 samples.

Results

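Genes of the meninges and of fibroblast-like cells were followed in mouse brain RNA, as measured on bead arrays. The 10 members were taken by gene symbol from the platform annotation, which gave 15 probes for them, of 16593 genes and 25697 probes in all. The members are the proteoglycan genes Ogn, Dcn, Lum, Bgn and Fmod, the growth factor gene Igf2, the transporter gene Slc22a6, the enzyme genes Ptgds and Aldh1a2, and the collagen gene Col1a2. An intensity of 16 was set as a floor against noise. For 9 of the genes at least 1 probe exceeded it on 3 or more arrays, and 11 member probes were tested. Col1a2, a further probe of Fmod and 2 of Ogn did not pass that filter.

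The arrays held brain RNA of male C57BL/6J mice aged 21 weeks. The 4 control arrays came from wild-type mice, and the 3 others from mice homozygous for a knockout allele of Duf1220, each array from a mouse of its own. The labels name no brain region and no litter, and do not say which part of the gene was deleted. In the mouse this protein domain is encoded by Pde4dip, whose brightest probe read 2228, 2502, 2198 and 2157 in wild type and 1233, 1442 and 1498 in knockout. The groups did not overlap there, as for 3.94% of all tested probes with knockout lower. The log2 difference was -0.71 (limma adjusted p = 0.754), so this probe did not pass the adjusted threshold. The 2 other Pde4dip probes overlapped between the groups, and where these probes lie with respect to the deletion was not analysed here. Neuron markers were bright on every array, with Syn1, a synaptic vesicle gene, at 4720 to 8511. Of 10 such markers 7 were tested, and Snap25, Nefl and Gad2 did not pass the filter. Slc17a7, a vesicular glutamate transporter gene, differed by -0.63 (SE 0.21, limma adjusted p = 0.754), with knockout array 3 inside the wild-type range. Wild-type arrays 2 and 3 stood apart: across tested probes their mean correlation with the other arrays was 0.932 and 0.970, against 0.976 to 0.981 for the other 5. The first principal component of the tested probes held 65.1% of the variance, and its coordinate was 0.879 on wild-type array 2 and -0.27 to 0.0731 elsewhere. Values without these 2 arrays are given beside most results that rest on them. They are not given for the principal component or for the genes most like the members.

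The brain is wrapped in the meninges, whose inner layers hold fibroblast-like cells that lay down collagen and small leucine-rich proteoglycans. Decorin, biglycan, lumican, fibromodulin and osteoglycin belong to that proteoglycan family, bind collagen fibrils and set their spacing and thickness. Meningeal cells are also known as a source of retinoic acid, insulin-like growth factor 2 and prostaglandin D synthase, and they carry organic anion transporters. Meninges can stay attached to the brain surface at dissection. In such bulk RNA, fewer cells of a type and less RNA per cell cannot be told apart.

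The 9 tested genes did not share 1 pattern over the 7 arrays. Ogn, Lum and Igf2 were lowest on wild-type arrays 2 and 3. Bgn, Slc22a6 and Ptgds were highest on those same arrays. Dcn was highest on wild-type array 2 alone, Fmod was lowest on wild-type array 2 and highest on wild-type array 3, and Aldh1a2 was lowest on wild-type array 1 and highest on wild-type array 4. Of the 11 tested member probes, 3 had both of these arrays lowest and 3 had both highest, 27.3% each. Over all 12833 tested probes the corresponding shares were 18.7% and 15.7%, so both patterns were common on these arrays. Wild-type array 2 was the highest of the 7 for 3 member probes and for 30.0% of all tested probes.

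**Figure D1:**
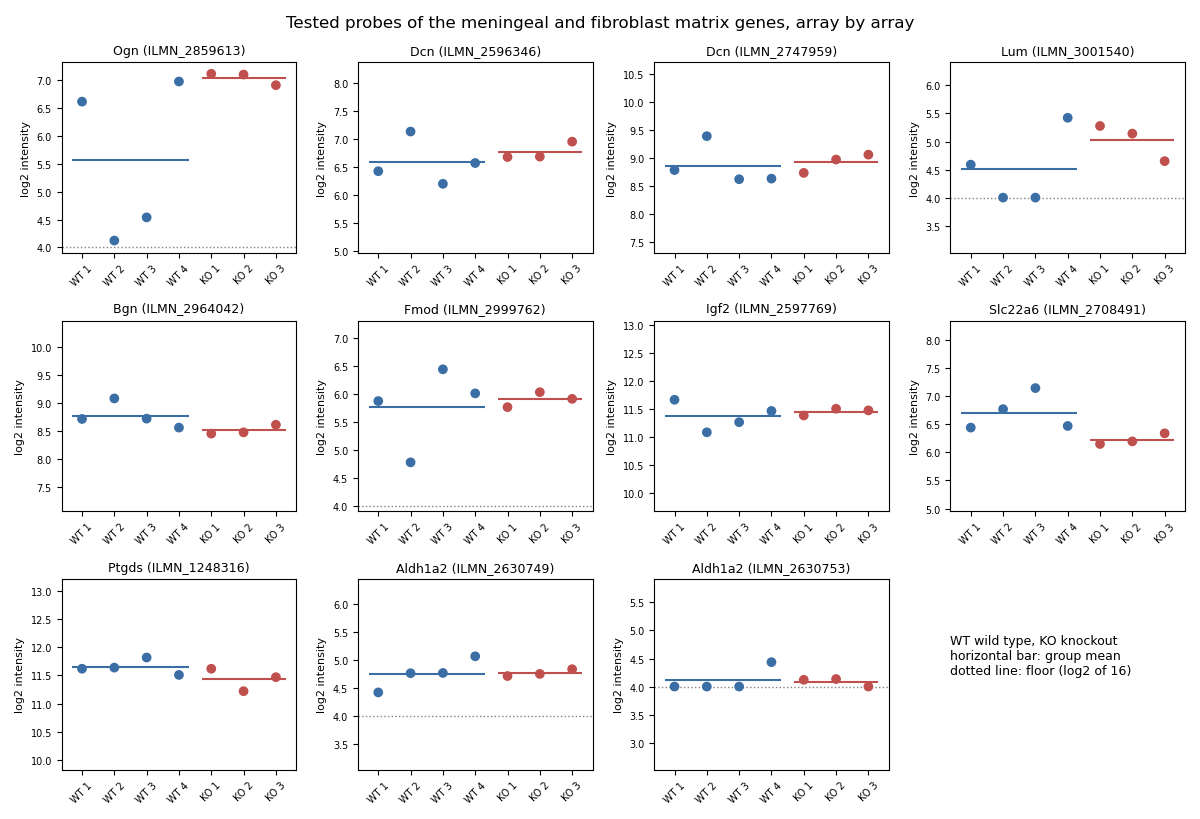
Log2 intensity (vertical axis, floored at 16) of the 11 tested member probes on each of the 7 arrays, with 4 wild-type arrays in blue and 3 knockout arrays in red and bars at the group means. Each panel spans about the same number of log2 units, and Ogn shows the widest gap, with wild-type arrays 2 and 3 at 4.12 and 4.54 and all others at 6.61 to 7.11.

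Ogn encodes osteoglycin, also called mimecan, a keratan sulfate proteoglycan. At its only tested probe, ILMN_2859613, the intensity was 98.0, 17.4, 23.2 and 125.8 on wild-type arrays 1 to 4 and 138.5, 137.1 and 120.2 on knockout arrays 1 to 3. Wild-type arrays 2 and 3 were low, and wild-type array 4 lay inside the knockout range, so the groups overlapped. The log2 means were 5.56 ± 1.44 (SD, n = 4) and 7.04 ± 0.11 (SD, n = 3). Knockout minus wild type gave a log2 difference of 1.48 (SE 0.67, 95% interval -0.05 to 3.00, limma adjusted p = 0.754, two-sided exact permutation p = 0.2). Without wild-type arrays 2 and 3 it was 0.25, and without array 2 or array 3 alone it was 1.00 or 1.14. The 2 other Ogn probes stayed under an intensity of 5 on every array, so they gave no level.

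Lum encodes lumican, the keratan sulfate proteoglycan known for ordering collagen in the cornea. Its probe ILMN_3001540 was dim, at 24.0, 6.67, 6.66 and 42.9 in wild type and 38.8, 35.3 and 25.1 in knockout. As for Ogn, wild-type arrays 2 and 3 were low, here under the floor, and the groups overlapped. The log2 difference was 0.52 (SE 0.35, 95% interval -0.29 to 1.33, limma adjusted p = 0.754), and without wild-type arrays 2 and 3 it was 0.02. The floor sets the size of this difference, which was 1.02 at a floor of 8 and 0.03 at a floor of 32.

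Bgn encodes biglycan, a proteoglycan with chondroitin or dermatan sulfate chains, and its gene lies on chromosome X. Probe ILMN_2964042 read 418.7, 539.8, 420.4 and 376.4 in wild type and 349.5, 354.9 and 389.9 in knockout. Wild-type array 2 was the highest, and 1 knockout array fell inside the wild-type range. The log2 difference was -0.26 (SE 0.17, 95% interval -0.63 to 0.12, limma adjusted p = 0.754, exact permutation p = 0.0857). Without wild-type arrays 2 and 3 it was -0.12, and without array 2 alone -0.15.

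Dcn encodes decorin, a collagen-binding proteoglycan that also binds the growth factor TGF-beta. Its brighter probe, ILMN_2747959, read 440.1, 669.4, 393.1 and 396.2 in wild type and 425.3, 501.3 and 532.7 in knockout. Only wild-type array 2 stood above the others, and all knockout values lay inside the wild-type range. The dimmer probe, ILMN_2596346, read 86.0, 140.4, 73.6 and 95.1 against 102.5, 102.9 and 123.9, again highest on wild-type array 2. Over the 7 arrays these probes, 1 of 2 same-gene pairs compared, had a Pearson r of 0.882 (exact permutation p = 0.00694, adjusted p = 0.0139) and a Spearman rho of 0.893 (exact permutation p = 0.0123, adjusted p = 0.0246). That r was 0.717 without wild-type arrays 2 and 3, the farthest from the median of the dimmer probe. Their group differences were 0.07 (SE 0.22) and 0.19 (SE 0.23), with limma adjusted p of 0.932 and 0.79.

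Fmod encodes fibromodulin, which takes part in collagen fibril assembly in tendon. Probe ILMN_2999762 read 58.5, 27.4, 86.7 and 64.4 in wild type and 54.3, 65.4 and 60.1 in knockout. The lowest and the highest value both came from wild type, and every knockout array lay between them. The log2 difference was 0.13 (SE 0.35, 95% interval -0.67 to 0.93, limma adjusted p = 0.917). The other Fmod probe was under the floor on all arrays. Col1a2, which encodes the second chain of type I collagen, read 11.1, 25.8, 15.97 and 6.93 in wild type and 7.31, 15.1 and 15.5 in knockout. It exceeded the floor only on wild-type array 2, so it was not tested. The Col1a2 probe was thus under the floor on 6 of the 7 arrays. Col1a1, which encodes the first chain of this defining fibroblast product, was dim but above the floor on all arrays except wild-type array 2. Its only probe read 34.8, 9.96, 33.7 and 36.02 in wild type and 50.3, 36.2 and 35.9 in knockout. The log2 difference of Col1a1 was 0.49 (SE 0.30, limma adjusted p = 0.754), and 0.19 without wild-type arrays 2 and 3.

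Slc22a6 encodes an organic anion transporter known from the kidney and the meninges. Its probe ILMN_2708491 read 87.0, 109.3, 141.8 and 88.8 in wild type and 71.0, 73.4 and 81.1 in knockout. All knockout values were below all wild-type values, and the wild-type spread came mostly from arrays 2 and 3. Such separation held for 1 of 11 tested member probes, 9.09%, against 7.39% of all tested probes in either direction, 3.94% with knockout lower and 3.44% with knockout higher. The level was 1.39-fold lower in knockout, a log2 difference of -0.48 (SE 0.2, 95% interval -0.94 to -0.02). Adjusted over all tested probes, the limma p was 0.754, above the threshold, and the exact permutation p was 0.0857. Without wild-type arrays 2 and 3 the difference was -0.23, a change of over 1.5 times, and without array 3 alone it was -0.33.

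Ptgds encodes the lipocalin-type prostaglandin D synthase, which is abundant in the meninges, the choroid plexus and oligodendrocytes. Its only probe, ILMN_1248316, was bright, at 3158, 3189, 3614 and 2926 in wild type and 3146, 2383 and 2832 in knockout. The groups overlapped, with knockout array 1 inside the wild-type range. The log2 difference was -0.21 (SE 0.16, 95% interval -0.58 to 0.15, limma adjusted p = 0.754). Without wild-type arrays 2 and 3 it was -0.14, and without knockout array 2 alone, the lowest of the 7, it was -0.11. Oligodendrocyte markers, another source of this transcript, summed to 27520 to 31520 in wild type and 27270 to 31150 in knockout over 9 tested genes, and their part in the Ptgds level was not tested.

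Igf2 encodes insulin-like growth factor 2, an imprinted growth factor that the adult brain makes mainly in the leptomeninges and the choroid plexus. Probe ILMN_2597769 read 3263, 2180, 2477 and 2830 in wild type and 2682, 2922 and 2850 in knockout. Wild-type arrays 2 and 3 were low and wild-type array 1 was high, and all knockout values lay between. The log2 difference was 0.08 (SE 0.17, 95% interval -0.31 to 0.48, limma adjusted p = 0.878), and it turned to -0.11 without wild-type arrays 2 and 3.

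Aldh1a2 encodes retinaldehyde dehydrogenase 2, which makes retinoic acid. Its brighter probe, ILMN_2630749, was dim, at 21.5, 27.3, 27.4 and 33.6 in wild type and 26.4, 27.1 and 28.7 in knockout. No group stood apart, and the log2 difference was 0.01 (SE 0.18, 95% interval -0.39 to 0.41, limma adjusted p = 0.986). The other probe, ILMN_2630753, exceeded the floor on 1 wild-type and 2 knockout arrays, with a difference of -0.02 (SE 0.16). The probes of this second same-gene pair had an r of 0.693 (exact permutation p = 0.186, adjusted p = 0.186) and a rho of 0.197 (exact permutation p = 0.686, adjusted p = 0.686). That r turned to -0.679 without wild-type arrays 1 and 4, the farthest from the median.

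With limma, 0 of 12833 probes passed an adjusted p of 0.05 (0.0%), and 0 of the 11 member probes passed. At an unadjusted p under 0.05 there was 1 member probe, that of Slc22a6, or 9.09% of the 11, against 4.2% of all tested probes and 1.99% with lower levels in knockout. That count was 0 without wild-type array 3, when 2.25% of all tested probes were counted. It was also 0 without any 1 of the knockout arrays, when 1.27% to 2.07% were counted. The count was 3 without wild-type array 4 (Lum, Ogn and Slc22a6), beside 12.7% of all tested probes. Without wild-type array 1 it was 2 (Ogn and Slc22a6), beside 4.41%. Without wild-type array 2 it was 1, then Dcn, beside 5.29%. With wild-type arrays 2 and 3 both left out it was 0, beside 4.05%. At the brightest probe of each gene, 6 members had higher and 3 lower means in knockout, and 53.1% of all tested probes had higher means. The median log2 difference of the 9 genes was 0.07, beside 0.02 over all tested probes, and it was -0.04 without wild-type arrays 2 and 3. The intervals leave room for a change in either direction for every tested member except Slc22a6. They are not adjusted for the number of probes, and for Slc22a6 the limma adjusted p was 0.754 and the exact permutation p 0.0857.

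**Figure D2:**
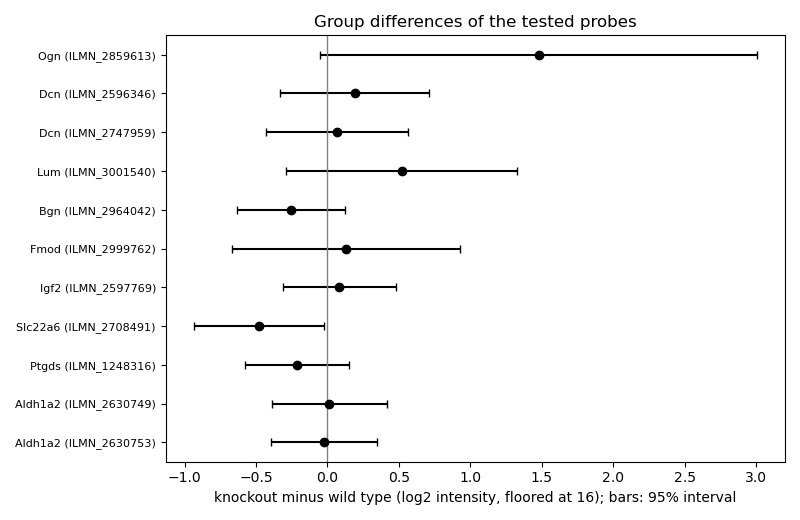
Knockout minus wild type on the log2 scale (horizontal axis) for the 11 tested member probes (vertical axis). Bars are 95% intervals from limma, not adjusted for the number of probes. The interval of Slc22a6, -0.94 to -0.02, is the only one that leaves out 0, and that of Ogn is the widest.

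Whether the members moved together was read from the correlation of every pair over the 7 arrays, at the brightest tested probe of each gene. Of 36 pairs, 15 had a positive and 21 a negative Pearson r. Their median was -0.12, beside 0.01 over all 82336528 pairs of tested probes. With deviations from the group means the median was -0.13, and without wild-type arrays 2 and 3 it was 0.04. Strong correlations are common on these arrays, and the median size of r over all pairs was 0.497. Choroid plexus markers had a median pairwise r of 0.00, endothelial and mural markers 0.16 and astrocyte markers -0.19 over 11, 15 and 11 tested genes. These medians were 0.36, -0.05 and 0.01 without wild-type arrays 2 and 3. Such medians carry no test, and nothing particular to the members is read from them.

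**Figure D3:**
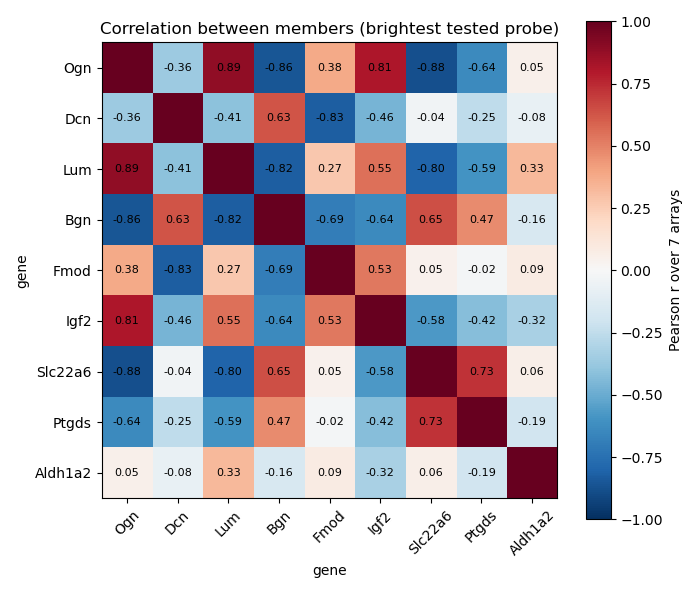
Pearson r over 7 arrays between the 9 tested members (brightest probe of each, genes on both axes), in red for positive and blue for negative values. Ogn, Lum and Igf2 are positively correlated with each other, and each of them is negatively correlated with Bgn, Slc22a6 and Ptgds.

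Among the 36 pairs, 7 had an unadjusted Pearson p under 0.05, and 1 passed after Benjamini-Hochberg adjustment over the pairs. That pair was Ogn and Bgn, both leucine-rich proteoglycans, with an r of -0.859 and a rho of -1.0. Ordered by level, the 7 arrays ran in exactly opposite order for these genes. The exact permutation p was 0.0002 for r, adjusted to 0.0072, and 0.0004 for rho, adjusted to 0.0144, and both unadjusted values are the smallest that 5040 orders allow. Ogn divides the arrays into the low wild-type arrays 2 and 3 and the 5 others, so the pooled r rests in part on that gap. Within the 5 other arrays r was -0.977, and with deviations from the group means it was -0.769. Of the 12833 tested probes, 1672 had an r with Bgn as low as that of Ogn or lower, so such an r was common on these arrays. An array order exactly opposite to that of Bgn was less common, with 96 probes, or 0.748%.

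Ogn and Lum had an r of 0.89 (exact permutation p = 0.00397, adjusted p = 0.0715) and a rho of 0.883 (exact permutation p = 0.0151, adjusted p = 0.171). Without wild-type arrays 2 and 3, the arrays farthest from the median of Ogn, r was 0.756. Of all tested probes, 7.98% had an r with Ogn at least as high. Lum and Bgn had an r of -0.821 (exact permutation p = 0.00833, adjusted p = 0.1), and -0.918 without wild-type arrays 2 and 4, which lay farthest from the median of Lum, wild-type array 3 being tied with array 2 at the floor. Without wild-type arrays 2 and 3 it was -0.772. Its rho was -0.883 (exact permutation p = 0.0151, adjusted p = 0.171). Dcn and Lum, next to each other on chromosome 10 in the RefSeq gene table, had an r of -0.409 (exact permutation p = 0.367, adjusted p = 0.629) and a rho of -0.252 (exact permutation p = 0.583, adjusted p = 0.881). Without wild-type array 2 and knockout array 3, the farthest from the median of Dcn, that r was 0.274. It kept its sign, at -0.574, without wild-type arrays 2 and 3. Dcn and Bgn, the closest relatives of the family, had an r of 0.629 (exact permutation p = 0.13, adjusted p = 0.385) and a rho of 0.214 (exact permutation p = 0.662, adjusted p = 0.881). Without wild-type array 2 and knockout array 3 that r was -0.447, and without wild-type arrays 2 and 3 it was 0.036. The pair Ogn and Igf2 did change sign without wild-type arrays 2 and 3, from 0.807 (exact permutation p = 0.0349, adjusted p = 0.179) to -0.872. Its rho was 0.393 (exact permutation p = 0.396, adjusted p = 0.839).

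**Figure D4:**
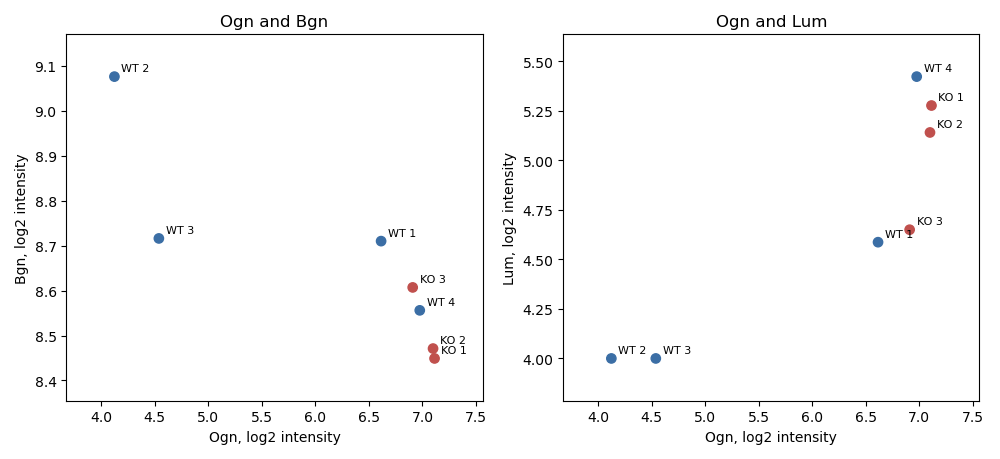
Log2 intensity of Ogn (horizontal axes) against Bgn and Lum (vertical axes) on 4 wild-type (blue) and 3 knockout (red) arrays. Bgn falls step by step as Ogn increases (rho -1.0), and Lum is at the floor of 4 on the 2 arrays where Ogn is lowest.

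The promoter windows of the pair with opposite array order are shown because the probes of these genes moved against each other. RefSeq windows on GRCm38.p6, from 250 bases before to 50 after the gene start, were held for 8 of the 10 members. They are printed 5′ to 3′ on the gene's strand. Capitals mark matches, sought on both strands, to 4 short motifs. The TATA box was searched as TATAAA. The CCAAT box was searched by those letters. For the GC box the letters were GGGCGG, and for the E box they were CANNTG. Overlapping matches run together.
Ogn, chr13:49607765-49608064, plus strand: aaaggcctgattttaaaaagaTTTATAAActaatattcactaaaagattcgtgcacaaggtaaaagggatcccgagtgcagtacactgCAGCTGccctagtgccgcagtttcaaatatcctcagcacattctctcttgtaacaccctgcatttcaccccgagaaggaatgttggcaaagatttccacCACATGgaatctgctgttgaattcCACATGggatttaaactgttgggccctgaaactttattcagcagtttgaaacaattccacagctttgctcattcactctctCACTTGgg
Bgn, chrX:73483351-73483650, plus strand: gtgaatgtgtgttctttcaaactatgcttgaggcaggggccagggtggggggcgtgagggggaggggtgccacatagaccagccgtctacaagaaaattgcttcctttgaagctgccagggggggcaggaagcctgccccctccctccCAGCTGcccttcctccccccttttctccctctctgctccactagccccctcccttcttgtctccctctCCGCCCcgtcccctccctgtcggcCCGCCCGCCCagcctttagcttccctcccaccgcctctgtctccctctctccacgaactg
The Ogn window held 2 overlapping TATA box matches, 4 E box matches and 0 GC box matches. The Bgn window held 0 TATA box matches, 1 E box match and 3 GC box matches, of which 2 overlap. Neither held a CCAAT box match. The share of G and C bases was 42.3% for Ogn and 63.7% for Bgn. Of 32851 windows of that length, 13.6% held a TATA box match, 72.3% an E box match, 35.7% a GC box match and 37.4% a CCAAT box match. These are matches of letters, with no measurement of binding.

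Markers of other cells also differed between the arrays. Hba-a1, the alpha-globin gene of red blood cells, read 13080, 26430, 17440 and 10060 in wild type and 8622, 10660 and 12680 in knockout. It was highest on wild-type arrays 2 and 3, where Bgn was highest and Ogn lowest. The 6 tested blood markers summed to 10440 to 27800 in wild type and 9198 to 13270 in knockout, a sum made up mostly of Hba-a1. They did not move as 1 group, with 3 of 6 higher in knockout. The neutrophil genes S100a8 and S100a9 differed by 0.88 (SE 0.31, limma adjusted p = 0.754) and 1.29 (SE 0.25, limma adjusted p = 0.754). The groups did not overlap for either, as for 3.44% of all tested probes with knockout higher. For S100a8 the gap was narrow, at 101.2 on knockout array 2 against 101.1 on wild-type array 4. Ltf, also of the blood list, differed by 0.002 (SE 0.37), and by 0.41 without wild-type arrays 2 and 3. Ngp of that list did not pass the filter. The differences of S100a8 and S100a9 were 0.81 and 1.24 without wild-type arrays 2 and 3. Ttr, the transthyretin gene of the choroid plexus, read 6223 to 10440 in wild type and 8255 to 10130 in knockout. It made up most of the summed level of 11 choroid plexus markers, 7428 to 11470 in wild type and 9155 to 11090 in knockout. The lowest sums, 7428 and 7439, came from wild-type arrays 2 and 3, where Igf2 was also lowest. The mean log2 deviation over the list did not follow that sum. It was 0.13, 0.07, 0.07 and 0.07 on wild-type arrays 1 to 4 and -0.02, -0.21 and -0.12 in knockout. Folr1, a folate receptor gene, Otx2, a choroid plexus transcription factor gene, and Sostdc1 were highest on wild-type arrays 2 and 3. That held for 15.7% of all tested probes. Other markers of the list went otherwise. Ttr was lowest on both arrays, Kcne2 and Lbp were lowest on wild-type array 2, and Kl and Aqp1 were lowest on wild-type array 3. In knockout 8 of the 11 markers were lower and 3 higher, with a median log2 difference of -0.16. Of all tested probes 53.1% had higher means in knockout. Without wild-type arrays 2 and 3, 2 of the 11 markers were higher and the median was -0.22. Folr1 differed by -1.35 (SE 0.30, limma adjusted p = 0.754), and by -0.91 without those arrays. It was dim, at 32.8, 52.3, 73.8 and 35.4 in wild type and 22.6, 15.2 and 16.4 in knockout. Knockout array 2 was thus under the floor and knockout array 3 close to it. Border macrophage and microglia markers summed to 482.9 to 698.5 in wild type and 429.1 to 567.1 in knockout over 7 tested genes. Endothelial and mural markers summed to 4723 to 5323 and 4771 to 5050 over 15 genes. Astrocyte markers summed to 18790 to 24990 over the 7 arrays, and the part of any of these cells in the members' levels was not tested.

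Hba-a1 was set beside the members after its values had been seen, so its correlations over the 7 arrays are a description with no test. The r with Hba-a1 was -0.93 for Ogn, -0.916 for Lum and 0.959 for Bgn, and -0.799, -0.889 and 0.862 without wild-type arrays 2 and 3. Over all 7 arrays, 8.84%, 11.7% and 3.41% of all tested probes had an r with Hba-a1 at least as far from 0. For the other members that r was 0.749 (Slc22a6), -0.693 (Igf2), 0.612 (Dcn), -0.541 (Fmod), 0.449 (Ptgds) and -0.13 (Aldh1a2). Shares of 40.4% to 92.0% of all tested probes were at least as far from 0 as these. Without wild-type arrays 2 and 3 the sign turned for Igf2 (0.784), Fmod (0.228) and Ptgds (-0.044). The r with the first principal component was -0.862 for Ogn, -0.779 for Lum and 0.966 for Bgn. For the other members it ran from -0.778 (Fmod) to 0.737 (Dcn), and over all tested probes the median size was 0.708. The r with Ttr was 0.899 for Ogn, 0.895 for Lum, 0.742 for Igf2, -0.762 for Slc22a6 and -0.729 for Bgn. Without wild-type arrays 2 and 3 these were -0.018, 0.558, -0.172, 0.263 and -0.063. For the other members the r with Ttr ran from -0.509 (Dcn) to 0.277 (Fmod). These values are also a description with no test.

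**Figure D5:**
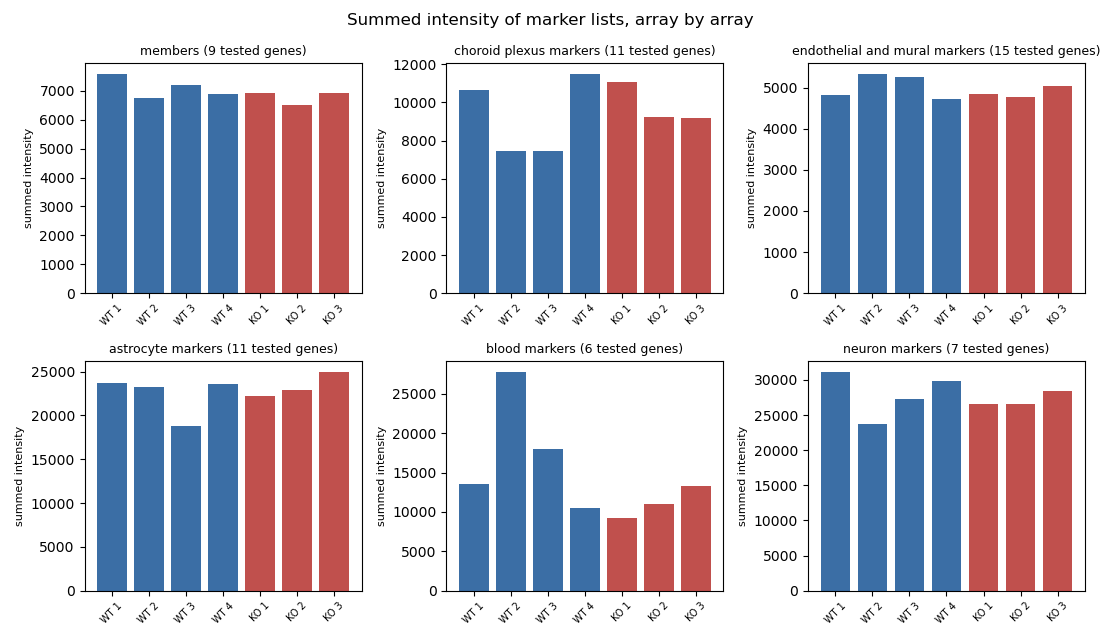
Summed intensity (vertical axes) of the tested genes of the members and of 5 marker lists on each array, wild type in blue and knockout in red. Blood markers are highest on wild-type array 2 (27800). Choroid plexus markers are lowest on wild-type arrays 2 and 3 (7428 and 7439), and their sum is mostly Ttr. The members' sum runs from 6500 to 7569 and is mostly Igf2 and Ptgds. Of these, Igf2 is lowest and Ptgds highest on wild-type arrays 2 and 3, so the sum says little of the dimmer members.

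Genes of the same pathways were read from the same fit, and 0 of them passed the adjusted threshold. Of the proteoglycan family outside the members, 2 of 11 genes on the array were tested. Prelp, which anchors basement membranes to connective tissue, differed by -0.53 (SE 0.27), with log2 levels of 9.52, 10.43, 9.96 and 9.21 in wild type and 9.24, 9.21 and 9.30 in knockout. It was highest on wild-type arrays 2 and 3, as Bgn was, and without them it differed by -0.12. Podn lay near the floor and differed by -0.05.

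Collagens and collagen-processing enzymes had 12 of 16 tested genes higher in knockout and a median of 0.27, with 0 at an unadjusted p under 0.05. Col5a1, a fibril-nucleating collagen, differed by 0.78 (SE 0.34) and Col16a1, a fibril-associated collagen, by 0.70 (SE 0.31). On the log2 scale Col16a1 read 8.64, 7.96, 8.10 and 9.15 in wild type and 9.33, 9.40 and 8.75 in knockout, lowest on wild-type arrays 2 and 3. The list score, the mean deviation of its genes from their means, was -0.40 on wild-type array 2. Pcolce2, a procollagen C-proteinase enhancer, differed by -0.45 (SE 0.23) and the lysyl hydroxylase gene Plod3 by -0.38 (SE 0.24). With wild-type arrays 2 and 3 left out the differences were 0.31 for Col5a1, 0.27 for Col16a1, -0.20 for Pcolce2 and -0.04 for Plod3, and the list had 14 of 16 genes higher and a median of 0.19.

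Other leptomeningeal and fibroblast genes were divided, with 14 of 29 tested genes higher and 15 lower in knockout, a median of -0.06 and 0 at an unadjusted p under 0.05. Fbln2, an elastic-fibre protein gene, differed by 0.67 (SE 0.38) and Serping1, the C1 inhibitor gene, by 0.33 (SE 0.18). Serpinf1, which encodes pigment epithelium-derived factor, differed by -0.60 (SE 0.31) and the thrombospondin gene Thbs2 by -0.27 (SE 0.20). Serpinf1 had a log2 level of 10.15 on wild-type array 2 and 8.73 to 9.53 elsewhere, whereas Fbln2 was under the floor there and at 4.97 to 5.91 elsewhere, so these genes stood on opposite sides on the same array. With wild-type arrays 2 and 3 left out, Fbln2 differed by 0.09, Serping1 by 0.19, Serpinf1 by -0.13 and Thbs2 by -0.19. The median pairwise r of the list was -0.07, with 179 of 406 pairs above 0.

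Ligand-handling genes around Igf2 had 4 of 9 tested members higher and a median of -0.02. The binding protein gene Igfbp7 differed by 0.42 (SE 0.24), the clearance receptor gene Igf2r by 0.07 (SE 0.15), the receptor gene Igf1r by -0.57 (SE 0.33) and Igfbp6 by -0.22 (SE 0.27). Of the tested retinoic acid genes 7 of 9 were higher, with a median of 0.12, with the binding protein genes Crabp1 at 0.45 (SE 0.21) and Crabp2 at 0.32 (SE 0.22), the receptor gene Rxrb at -0.47 (SE 0.28) and the catabolic enzyme gene Cyp26b1 at -0.10 (SE 0.14). Of the tested prostaglandin genes 3 of 7 were higher, with a median of -0.05. The prostacyclin synthase gene Ptgis differed by -0.64 (SE 0.27, unadjusted p = 0.0418, limma adjusted p = 0.754), Ptges2 by -0.11, Hpgd by 0.46 (SE 0.31) and the transporter gene Slco2a1 by 0.33 (SE 0.24). Organic anion and related transporters had 7 of 9 higher and a median of 0.11. The carnitine transporter gene Slc22a5 differed by 0.51 (SE 0.21, unadjusted p = 0.0405, limma adjusted p = 0.754), Slc22a4 by 0.47 (SE 0.23), Slco3a1 by -0.79 (SE 0.45) and Slc22a18 by -0.35 (SE 0.22). In the organic anion list 1 gene was at an unadjusted p under 0.05 with higher levels, against 2.21% of all tested probes.

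Most of these differences were smaller without wild-type arrays 2 and 3. Around Igf2, Igfbp7 then differed by 0.05, Igf2r by 0.11, Igf1r by -0.11 and Igfbp6 by 0.04, the last with its sign turned. Among retinoic acid genes Crabp1 differed by 0.32, Crabp2 by 0.13, Rxrb by -0.10 and Cyp26b1 by -0.05, and 5 of 9 were higher. For prostaglandin genes the values were -0.25 for Ptgis, -0.15 for Ptges2, 0.15 for Hpgd and 0.03 for Slco2a1, with 4 of 7 higher. Of the transporters 4 of 9 were then higher, with 0.22 for Slc22a5, 0.24 for Slc22a4, -0.13 for Slco3a1 and -0.02 for Slc22a18.

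The genes most like the members were sought by their r with the mean deviation of the 9 members over the 7 arrays, among 6581 other genes with an SD of at least 0.2. In array order that mean was 0.02, -0.32, -0.13 and 0.18 in wild type, with its low values on arrays 2 and 3. In knockout it was 0.08, 0.10 and 0.08. Ogn, with an SD of 1.29 over the arrays against 0.19 to 0.58 for the other members, weighs most in it. The closest genes were Ppp4r4 (r = 0.998), Bcl7a (0.99), Tra2a (0.99), Krt10 (0.988) and Ociad1 (0.987). Rhob, Eif4e3, Ints6l, Lrrfip1 and 1700037C18Rik followed with r of 0.984 to 0.986. None of these 10 was in the lists of meningeal genes used here. The ranking rests on all 7 arrays, and no values without wild-type arrays 2 and 3 are given.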

How the data were processed

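Brain RNA of 4 wild-type and 3 knockout mice was measured, 1 Illumina bead array per mouse. The deposited values are linear intensities made with GenomeStudio 2011.1, per the submitters' processing notes; the method of normalization is not given in those notes or in the labels, and background subtraction and equal quantiles are read from the values (medians of 14.56 to 14.62, 22.3% of values negative). A table of bead signals was not used, since its 7 signal columns match no label.

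Intensities under 16 were set to 16 and taken to log2. The 12833 probes above 16 on at least 3 arrays were fitted with limma 3.58.1 in R 4.3.3, with group as the only term and Benjamini-Hochberg adjustment over all of them (threshold 0.05). The median standard error was 0.208, and the number of arrays limits the precision. Fold changes near the floor are understated. Single differences were set against 35 splits of the arrays (smallest p 0.0286), and correlations against all 5040 orders. All tests are two-sided. The labels give each mouse an ID but no litter, so p-values measure the spread between these mice. Probe genes came from the platform annotation (23978 probes with 1 symbol, 0 with several, 1719 with none).

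The members, lists, tests and alternatives were chosen with earlier results of these data known. Named were all member probes, up to 2 genes per direction of each pathway list with the smallest unadjusted p, and the 10 genes most like the members. Names set beside the members as markers were chosen after their values were seen. Same-numbered arrays of the groups had correlated deviations of 0.0797, -0.132 and -0.0371, so the numbers were not taken as pairs. The fit was tested on simulated data. Figures were drawn with matplotlib 3.10.9.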

Additional observations from a re-analysis of the deposited data

Results flagged for a closer look

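Among the wild-type arrays, 1 of 12 sets of values checked for a sample far from the others was marked, and chance marks about 1 in 20 such sets. At the dimmer Aldh1a2 probe, ILMN_2630753, wild-type array 4 stood alone above the floor, with an intensity of 21.6 against 15.2, 4.22 and 4.87. Its gap to the nearest array was the whole range of the group (ratio 1.0), because the 3 others were set to the floor.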

How the results depend on the processing

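The 11 member probes were refitted under up to 18 alternatives, and 0 passed the adjusted threshold in any of them. Over all probes 0 passed in every alternative except array weights, with 28, where the weights ran from 0.104 for wild-type array 2 to 6.71 for wild-type array 1. Ogn, Lum, the dimmer Dcn probe, Bgn, Slc22a6 and Ptgds kept their direction in all of them. With wild-type arrays 2 and 3 left out, the median pairwise correlation was 0.0427, Fmod differed by -0.0389 and Igf2 by -0.11. With array weights Igf2 differed by -0.157 and the dimmer Aldh1a2 probe by 0.0516. With the replicate block the brighter Dcn probe differed by -0.00929 and the dimmer Aldh1a2 probe by 0.0845, and the block changed no call of a member. At a floor of 32 the brighter Aldh1a2 probe differed by -0.0181 and the dimmer one had no value. The dimmer one differed by 0.324 at a floor of 8 and by 0.236 with log2(value + 16). The cause of these changes was not tested. Leaving out 1 array at a time gave 0 to 0 called probes, a median member difference of -0.0112 to 0.119 and a median pairwise correlation of -0.211 to -0.0783. It gave -0.0132 to 0.243 for the brighter Dcn probe, -0.205 to 0.349 for Fmod, -0.0112 to 0.183 for Igf2, -0.306 to -0.106 for Ptgds, 0.0623 to 0.373 for the dimmer Dcn probe, -0.0992 to 0.115 for the brighter Aldh1a2 probe and -0.0606 to 0.0845 for the dimmer one. With limma-trend the 1 member probe at an unadjusted p under 0.05 was that of Ogn in place of Slc22a6. At that p, 163 to 1633 probes were counted without 1 array, against 539 with all. Dim probes are limited by their signal over background.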
